A study of Homo sapiens with 12 samples.

Results

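The 10 genes described here are the core genes of cellular iron handling, measured as messenger RNA in THP-1 cells, an established human monocytic leukaemia line. They were chosen by name, as the rows of the count and TPM tables whose gene symbol is FTH1, FTL, NCOA4, TFRC, SLC11A2, SLC11A1, CYBRD1, SLC40A1, ACO1 or IREB2. They are 10 of the 78932 genes in the tables, and all 10 had counts in each of the 12 libraries. The study divided THP-1 cells into 4 groups of 3 libraries. CEL cells received LPS, ATP, cyclosporin A, eltrombopag and luspatercept. CE cells received LPS, ATP, cyclosporin A and eltrombopag. LPS cells received LPS and ATP, and served as the model of pyroptosis, an inflammatory form of cell death. NC cells are labelled as the normal control and no agent is listed for them. LPS is a bacterial cell wall component that activates Toll-like receptor 4, and extracellular ATP opens the P2X7 channel. Cyclosporin A inhibits calcineurin, eltrombopag is a thrombopoietin receptor agonist that also binds iron, and luspatercept is a ligand trap built from the activin receptor IIB. The sources used here give no doses or treatment times, and no group received cyclosporin A, eltrombopag or luspatercept without LPS and ATP. Cyclosporin A and eltrombopag were always given together, so their parts in a change of CE cannot be told apart. The table columns taken as CE are named for treatment alone, without luspatercept, and every CE value rests on reading them so.

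Cells take up iron mostly as iron-loaded transferrin through the transferrin receptor, move it across the endosomal membrane with a divalent metal transporter, store what they do not use in ferritin cages of heavy and light chains, and export it through ferroportin. Macrophages recycle iron from red cells, and during infection they are known to hold iron back by storing more and exporting less. The iron regulatory proteins, encoded by ACO1 and IREB2, bind a short RNA hairpin, the iron-responsive element, when iron is scarce. Bound in the 5' UTR of ferritin and ferroportin mRNA the proteins block translation, and bound in the 3' UTR of transferrin receptor mRNA they stabilise the transcript. RNA-seq therefore reads transcript levels of these genes and not the translational arm of their control.

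The hairpins are shown for the genes whose transcripts match a strict pattern of the element. The protein-coding transcripts of GENCODE release 29 on GRCh38 were searched on the sense strand over their whole length, coding sequence included. The pattern was a C, then any 5 bases, then the loop CAGTGN, with the 5 bases on each side of the loop paired, G with T allowed. It was present anywhere in a transcript of 287 of 19702 protein-coding genes (1.46%), so that share is not one of UTRs alone. It was present in 4 of the 10 genes here, which hold 7 hairpins, all in UTRs. Each sequence below is 29 bases, 5' to 3' in the sense of the transcript, and the capitals mark the unpaired C and the loop of 6 bases.
FTH1, 5' UTR, exon 1 of 4, chr11:61967574-61967602, minus strand: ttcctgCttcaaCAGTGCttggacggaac
FTL, 5' UTR, exon 1 of 4, chr19:48965335-48965363, plus strand: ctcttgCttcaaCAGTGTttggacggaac
SLC40A1, 5' UTR, exon 1 of 8, chr2:189580661-189580689, minus strand: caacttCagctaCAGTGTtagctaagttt
TFRC hairpin 1, 3' UTR, exon 19 of 19, chr3:196050979-196051007, minus strand: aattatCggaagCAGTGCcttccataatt
TFRC hairpin 2, 3' UTR, exon 19 of 19, chr3:196050575-196050603, minus strand: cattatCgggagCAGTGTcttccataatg
TFRC hairpin 3, 3' UTR, exon 19 of 19, chr3:196050510-196050538, minus strand: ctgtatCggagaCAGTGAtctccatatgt
TFRC hairpin 4, 3' UTR, exon 19 of 19, chr3:196050463-196050491, minus strand: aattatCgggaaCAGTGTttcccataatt

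The 2 ferritin hairpins share the 5 paired bases that the pattern required on each side of the loop. Counted from 1 at the 5' end of the window, FTL differs from FTH1 by T1C, C4T and C18T. T1C and C4T lie before the unpaired C, and C18T is the last base of the loop. A match to the pattern describes these letters only, and a gene without a match may carry an element of another form.

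Each library held 17737240 to 23183474 estimated counts. LPS 1 and NC 3 held 14.4% and 16.98% of their TPM in 29 ribosomal RNA rows, against at most 0.0692% in the other libraries, and these rows took at most 0.277% of any library's counts. CE 2 lay apart from CE 1 and CE 3, with a chi-square per degree of freedom of 52.9 and 36.2, against 6.09 between CE 1 and CE 3. LPS 1 lay at 88.5 and 96.0 from its group, and NC 3 at 139.8 and 124.4. In CE 1, CE 2 and CE 3, CSF1R was at 13.7, 52.6 and 16.2 TPM and ITGAM at 4.15, 24.9 and 7.25. SPI1 was at 3.17, 31.6 and 5.12 TPM there. IL1B, the cytokine released in pyroptosis, was at 1076 ± 58.9 CPM in CEL, 1736 ± 174 in CE, 1988 ± 106 in LPS and 2.07 ± 0.251 in NC (SD, n = 3 each). RCAN1, a gene driven by calcineurin, was at 11.8 ± 0.506 CPM in CEL, 10.9 ± 2.00 in CE, 396 ± 14.2 in LPS and 17.5 ± 1.42 in NC. Of 8 myeloid markers, 6 exceeded 1 TPM in every library of CEL, CE and LPS, and 5 did in NC. Their summed level moved with the groups, at 189.8 to 209.9 TPM in CEL, 229 to 318 in CE, 508 to 756 in LPS and 695 to 959 in NC, and its part in the results below was not tested. The largest part of the sum was CD33 in CEL and CE, but LYZ and FCGR1A differed most between groups in TPM. LYZ was at 22.1 to 28.4 TPM in CEL and 28.3 to 32.4 in CE, against 130.4 to 185 in LPS and 487 to 681 in NC. FCGR1A was at 48.3 to 56.9 TPM in CEL and 80.85 to 83.94 in CE. It was highest in LPS, at 297.7 to 453.6 TPM, against 153.4 to 197.2 in NC. Other markers on the list went the other way, with CD33 at 86.7 to 95.1 TPM in CEL against 48.5 to 76.1 in NC, CSF1R at 12.3 to 26.2 in CEL against 1.97 to 3.03 in NC, and ITGAM at 2.71 to 5.79 in CEL against 0.33 to 0.50 in NC. Of 8 erythroid, 4 megakaryocyte and 8 stromal markers none exceeded 1 TPM in every library of any group, and 1 of 7 lymphocyte markers did.

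FTH1 changed most of the 10 genes in LPS, CE and CEL against NC and in CEL against CE. In LPS cells FTH1 and the transporter gene SLC11A2 stood 23.3-fold and 3.75-fold above NC, while the exporter gene SLC40A1 stood 8.14-fold below NC. With cyclosporin A and eltrombopag added, FTH1, FTL, NCOA4, TFRC, SLC11A2, CYBRD1 and ACO1 rose above LPS cells, and IREB2 fell. Of the 7 genes that rose, FTH1, FTL, TFRC and SLC11A2 also rose in LPS against NC, while NCOA4 and CYBRD1 fell there and ACO1 did not pass. SLC11A1 was also lower than in LPS cells, but it passed the filter on low counts through the LPS libraries alone, so that is a description. With luspatercept as well, FTH1 rose 1.53-fold above CE, and 7 of the 10 genes did not pass the test. The words rise and fall are kept for genes with p under 0.05 in edgeR's two-sided quasi-likelihood F-test, after Benjamini-Hochberg adjustment over the 14065 genes tested. The word change is used for a difference whether or not it passed. Levels for 1 gene across libraries are CPM scaled with TMM factors, levels between genes are TPM, and each change is a log2 value ± its approximate standard error. These are bulk libraries, in which fewer cells of a type and less RNA per cell cannot be told apart.

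In LPS against NC, 5 of the 10 genes rose, 4 fell and 1 did not pass, in a comparison that called 45.9% of all tested genes, 22.4% higher and 23.5% lower. In CE against LPS, 7 rose, 2 fell and 1 did not pass, where 49.6% of all genes were called, 28.8% higher and 20.7% lower. In CEL against LPS, 6 rose, 2 fell and 2 did not pass, where 55.9% of all genes were called, 28.7% higher and 27.2% lower. In CEL against CE, 1 rose, 2 fell and 7 did not pass, where 23.6% of all genes were called, 8.78% higher and 14.8% lower. The share called among the 10 genes was above the background in the comparisons with LPS and NC, and 3 of 10 stood near it in CEL against CE. This is a description, since the genes were chosen with earlier results of these data known. The background was also not matched to their expression levels. In CE against NC, 5 rose, 4 fell and 1 did not pass, where 64% of all genes were called, 34.6% higher and 29.4% lower. In CEL against NC the counts were also 5, 4 and 1, where 67% of all genes were called, 34% higher and 33% lower. SLC11A1 passed the filter on low counts through the LPS libraries alone, so it had to differ between LPS and the other groups. Without it the counts of genes higher, lower and not passed, of 9, were 4, 4 and 1 in LPS against NC, 7, 1 and 1 in CE against LPS, 6, 1 and 2 in CEL against LPS, 1, 2 and 6 in CEL against CE, and 5, 3 and 1 in both CE and CEL against NC.

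The median log2 change of the 10 genes was 0.41 in CE against LPS and 0.46 in CEL against LPS, beside 0.08 and -0.03 over all tested genes. It was 0.19 in LPS against NC and 0.07 in CEL against CE, beside -0.01 and -0.09. Without SLC11A1 the medians were 0.47, 0.46, -0.15 and 0.04 in that order. The 2 groups had no overlapping libraries for 10 of the 10 genes in LPS against NC, for 9 in CE against LPS, for 9 in CEL against LPS and for 4 in CEL against CE, where 62.5%, 54.6%, 65.5% and 34.7% of all genes had none. Against NC the number was 9 for CE and 9 for CEL, beside 67.1% and 75.8% of all genes. Without SLC11A1 these numbers, of 9 genes, were 9, 8, 8 and 4 in the same order, and 8 for both CE and CEL against NC. The 2 groups did not overlap for any of the 47 changes called for these genes, SLC11A1 included, over the 6 comparisons. Their same sign within all 3 label batches, each with 1 library of every group, followed from that and adds no support. The comparisons share libraries, so they are not independent of each other. The split of calls over all genes depended on the scaling: with upper quartile factors CE against LPS gave 2945 higher and 4000 lower, against 4057 and 2915 with TMM, and LPS against NC gave 2604 and 4387, against 3152 and 3306. In CEL against LPS the split was 3294 and 4590 with upper quartile factors and 3381 and 4383 with library size alone, against 4039 and 3828 with TMM. Against NC, upper quartile factors gave 3571 higher and 5646 lower for CE and 3828 and 5805 for CEL, against 4869 and 4139 and against 4778 and 4647 with TMM. Library size alone gave 3040 higher and 3833 lower in CE against LPS. For CEL against CE it gave 1581 higher and 1756 lower, against 1235 and 2086 with TMM.

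**Figure D1:**
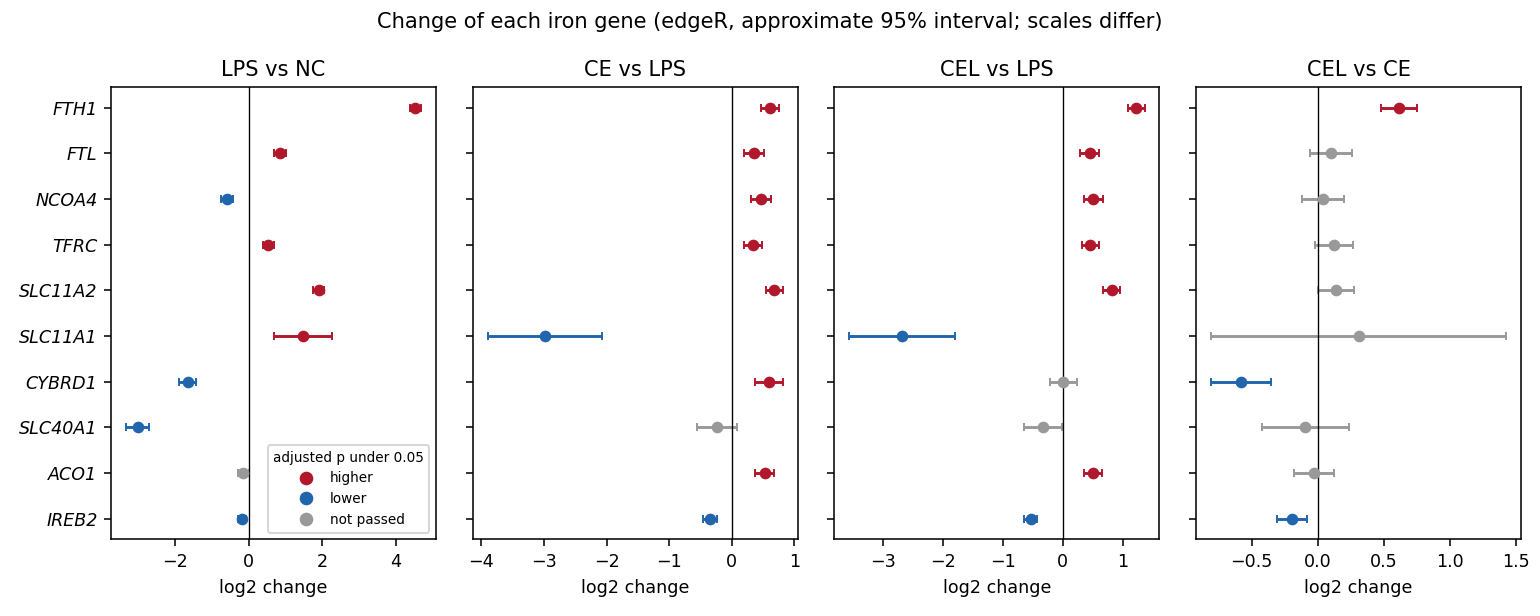
Log2 change of each of the 10 genes in 4 comparisons, with approximate 95% intervals from the F statistic. Horizontal scales differ between panels. Red points rose, blue points fell and grey points did not pass the adjusted threshold of 0.05. FTH1 is the farthest to the right in the panel of LPS against NC, at 4.54, and in CEL against CE it is the red point at 0.62.

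On the scale of TPM, which divides by transcript length, FTH1 and FTL led in CEL, CE and LPS, and in NC FTL led alone. In CEL the order was FTH1 at 8513 ± 284 TPM, FTL at 7239 ± 79.0, TFRC at 231 ± 5.79, NCOA4 at 168 ± 4.84, SLC11A2 at 59.99 ± 0.762 and IREB2 at 39.6 ± 5.61. ACO1 followed at 18.7 ± 0.369 TPM, CYBRD1 at 5.07 ± 0.370, SLC40A1 at 0.780 ± 0.0436 and SLC11A1 at 0.237 ± 0.181. No neighbours in this order overlapped between their 3 libraries. In CE, FTL at 6467 ± 235 TPM stood above FTH1 at 5347 ± 543, and in LPS, FTL at 5035 ± 1021 TPM stood above FTH1 at 3424 ± 704, where their ranges over libraries overlapped. In NC, FTL at 2519 ± 523 TPM was far above NCOA4 at 151 ± 29.6, FTH1 at 132 ± 22.3 and TFRC at 99.2 ± 18.1, which overlapped as neighbours. The larger SD of LPS and NC go with LPS 1 and NC 3, whose TPM is shared with ribosomal RNA.

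**Figure D2:**
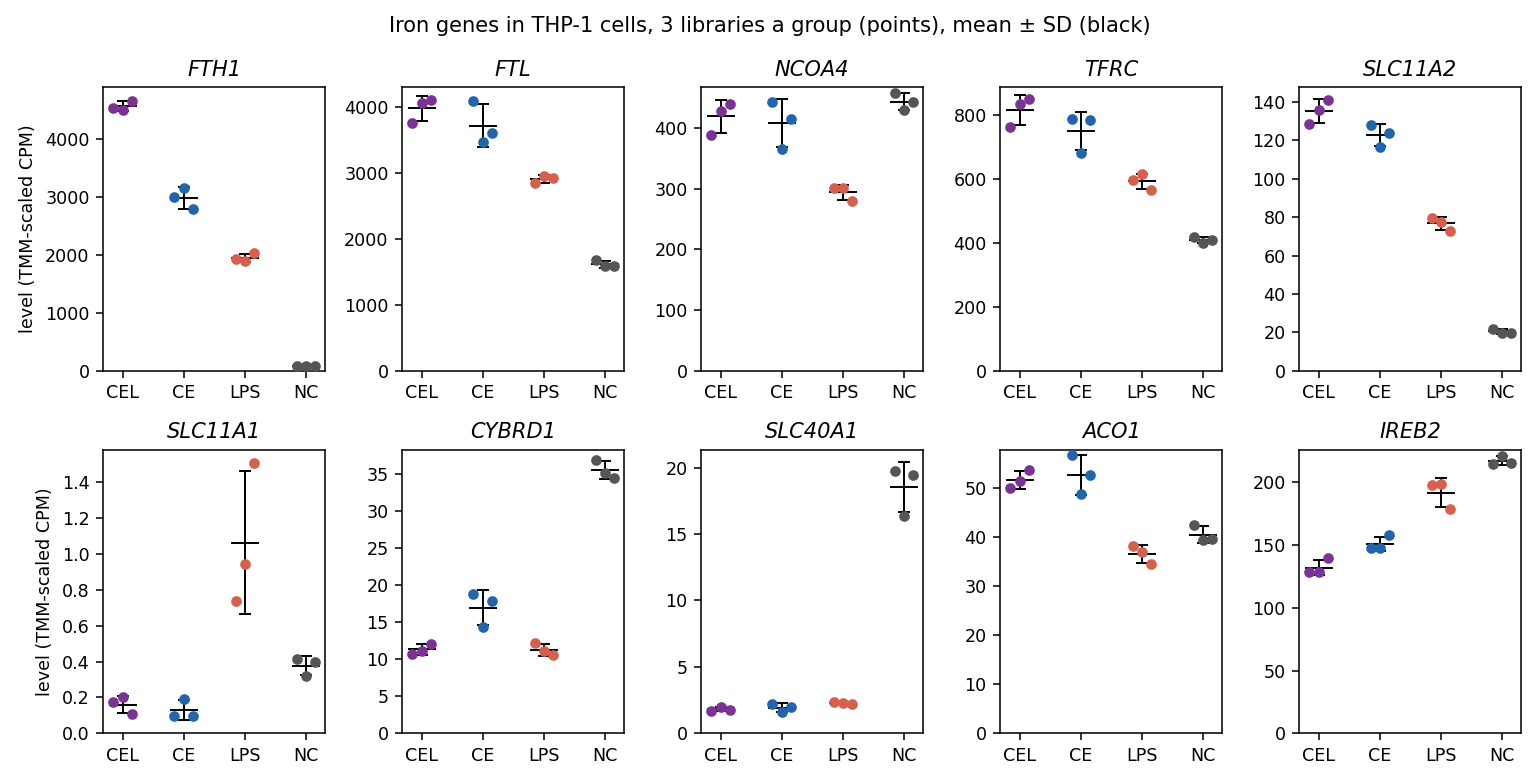
Level of each of the 10 iron genes in TMM-scaled CPM, on linear axes that start at 0 and differ between panels. Points are the 3 libraries of each group and black marks are the mean ± SD. FTH1 steps down from CEL to CE, LPS and NC, while SLC40A1 lies at 1.59 to 2.36 CPM in CEL, CE and LPS and at 16.3 to 19.8 CPM in NC.

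Ferritin heavy chain, encoded by FTH1 (ENSG00000167996, chr11:61959718-61967660), carries the site that oxidises iron before storage. FTH1 had 4532, 4508 and 4665 CPM in CEL libraries 1 to 3, 2998, 3159 and 2788 CPM in CE, 1936, 1892 and 2024 CPM in LPS, and 84.1, 80.0 and 87.3 CPM in NC. The 4 groups did not overlap. FTH1 rose by 4.54 ± 0.07 in LPS against NC (adjusted p = 1.58e-12), a 23.3-fold difference, and that adjusted p was the 24th smallest of the 14065. FTH1 rose by 0.61 ± 0.06 in CE against LPS (adjusted p = 9.61e-06) and by 1.23 ± 0.06, or 2.34-fold, in CEL against LPS (adjusted p = 2.96e-08). In CEL against CE the change was 0.62 ± 0.06 (adjusted p = 5.3e-05). On log2(TPM + 1) with limma the same difference was 0.68 with an adjusted p of 0.0913, and adjusted p ranged from 6.95e-40 to 0.0915 over all alternatives. FTH1 stood 54.5-fold above NC in CEL and 35.6-fold above NC in CE.

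FTH1 has many processed pseudogenes, and reads can match both. The FTH1 pseudogene rows held 0.555% to 0.982% as many counts as FTH1 in any library, and the FTL pseudogene rows 0.0967% to 0.139% as many as FTL. With these rows added to the gene, the changes of FTH1 were 4.54 in LPS against NC, 0.61 in CE against LPS and 0.62 in CEL against CE.

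Ferritin light chain, encoded by FTL (ENSG00000087086, chr19:48965301-48966878), helps the iron core to form. FTL had 3757, 4056 and 4108 CPM in CEL, 4082, 3462 and 3595 CPM in CE, 2839.6, 2952 and 2924 CPM in LPS, and 1677, 1582 and 1589 CPM in NC. CEL and CE overlapped and the other groups did not. FTL rose by 0.85 ± 0.07, or 1.80-fold, in LPS against NC (adjusted p = 2.52e-06). It rose by 0.35 ± 0.07 in CE against LPS (adjusted p = 0.00169) and by 0.45 ± 0.07 in CEL against LPS (adjusted p = 0.000245). The call in CE against LPS was lost with upper quartile factors, without the filter on low counts and on TPM, with adjusted p from 0.000196 to 0.206 over the alternatives. The call in CEL against LPS was lost on TPM, with adjusted p from 1.28e-06 to 0.0571. FTL in CEL against CE was 0.10 ± 0.07 (95% interval -0.06 to 0.26, adjusted p = 0.374), and without CE 1 it was 0.25 with adjusted p = 0.0362, in a range of 0.0362 to 1.0.

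The ratio of the 2 ferritin transcripts had a separate range in each group. The ratio of FTH1 to FTL in TPM was 1.23, 1.13 and 1.16 in CEL, 0.753, 0.936 and 0.794 in CE, 0.689, 0.649 and 0.703 in LPS, and 0.0514, 0.0516 and 0.0556 in NC. CEL was the 1 group in which the heavy chain transcript exceeded the light chain transcript. In exact two-sided permutation tests of the log2 ratio, each of the 6 pairs of groups gave p = 0.1 (n = 3 each, adjusted p = 0.1), the smallest that 3 libraries against 3 allow. FTH1 and FTL together took 1.60%, 1.56% and 1.57% of all TPM in CEL, 1.18%, 1.24% and 1.13% in CE, 0.653%, 0.902% and 0.982% in LPS, and 0.301%, 0.292% and 0.202% in NC. The lowest LPS and NC shares were those of LPS 1 and NC 3, the libraries with ribosomal RNA in their TPM.

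**Figure D3:**
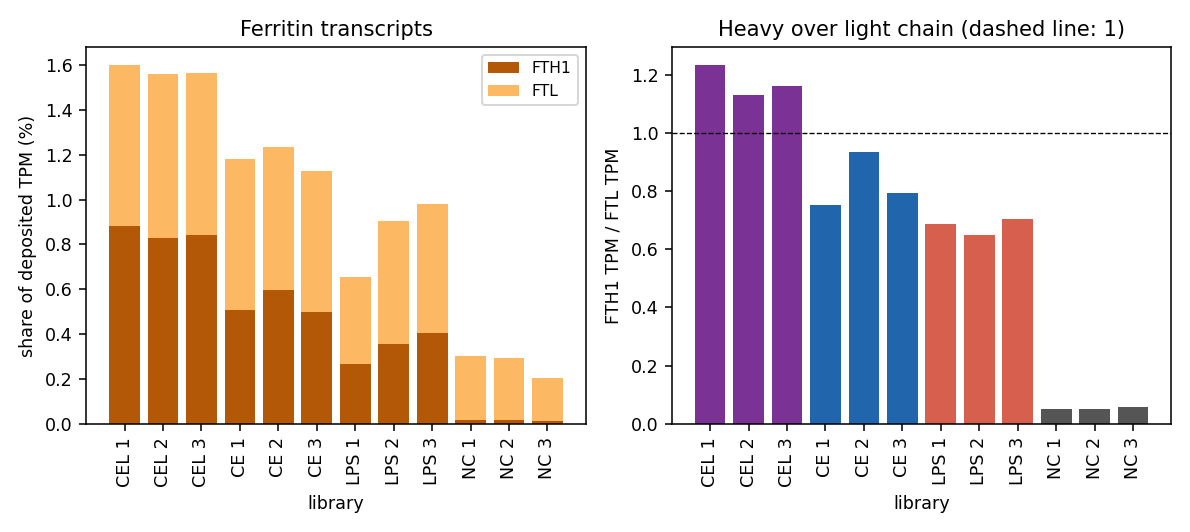
Left, share of deposited TPM held by FTH1 and FTL in each library, stacked and in percent. Right, the ratio of FTH1 to FTL in TPM in each library, with a dashed line at 1. The 3 CEL libraries lie at 1.13 to 1.23, the only ones above the line, and the 3 NC libraries lie at 0.0514 to 0.0556.

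NCOA4 (ENSG00000266412, chr10:46005088-46030714) is the cargo receptor that carries ferritin to the lysosome, where its iron is released. NCOA4 had 388, 429 and 439.8 CPM in CEL, 443, 365 and 415 CPM in CE, 302, 300.1 and 279 CPM in LPS, and 458, 429 and 443 CPM in NC. LPS lay below all other libraries, while CEL, CE and NC overlapped. NCOA4 fell by 0.59 ± 0.07 in LPS against NC (adjusted p = 4.05e-05), opposite in sign to both ferritin genes. It rose by 0.47 ± 0.07 in CE against LPS (adjusted p = 0.000191) and by 0.51 ± 0.07 in CEL against LPS (adjusted p = 8.21e-05). Against NC the change was -0.12 ± 0.07 in CE (95% interval -0.28 to 0.04, adjusted p = 0.162) and -0.08 ± 0.07 in CEL (95% interval -0.24 to 0.08, adjusted p = 0.333). The call in LPS against NC was lost on TPM, with adjusted p up to 0.0702 over the alternatives and 9.47e-08 at the lowest. Without CE 1 the change in CE against NC was -0.23 with adjusted p = 0.0258, in a range of 0.000814 to 0.771, and on TPM both changes against NC turned positive, at 0.07 in CE and 0.18 in CEL. With upper quartile factors and with library size alone NCOA4 was lower than NC, at -0.40 and -0.28 in CE (adjusted p = 0.000814 and 0.00135) and at -0.33 and -0.20 in CEL (adjusted p = 0.00306 and 0.0101, in a range of 0.00306 to 0.887).

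Among the uptake genes, TFRC (ENSG00000072274, chr3:196027183-196082189) encodes the transferrin receptor and carries the 4 hairpins shown above. TFRC had 761, 835 and 851 CPM in CEL, 787, 680.3 and 783 CPM in CE, 598, 614 and 567 CPM in LPS, and 417, 399 and 409.6 CPM in NC. CEL and CE overlapped, and both lay above LPS, which lay above NC. TFRC rose by 0.54 ± 0.06 in LPS against NC (adjusted p = 4.1e-05), by 0.34 ± 0.06 in CE against LPS (adjusted p = 0.00101) and by 0.46 ± 0.06 in CEL against LPS (adjusted p = 8.62e-05). CEL stood 2.00-fold above NC. The call in CE against LPS was lost with upper quartile factors and on TPM, with adjusted p from 1.73e-05 to 0.127. In CEL against CE the change was 0.12 ± 0.06 (95% interval -0.02 to 0.26, adjusted p = 0.215). TFRC and the ferritin genes rose together in the LPS, CE and CEL groups against NC.

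SLC11A2 (ENSG00000110911, chr12:50979401-51028566) encodes DMT1, which moves ferrous iron out of the endosome. SLC11A2 had 129, 136 and 141 CPM in CEL, 128, 116 and 124 CPM in CE, 79.6, 77.6 and 72.9 CPM in LPS, and 22.0, 19.5 and 19.9 CPM in NC. All 4 groups were apart, although CE 1 lay within 1 CPM of CEL 1. SLC11A2 rose by 1.91 ± 0.07, or 3.75-fold, in LPS against NC (adjusted p = 6.53e-10), by 0.68 ± 0.06 in CE against LPS (adjusted p = 3.96e-06) and by 0.82 ± 0.06 in CEL against LPS (adjusted p = 6.17e-07). CEL stood 6.62-fold and CE 6.01-fold above NC, the second largest rises of the 10 genes after FTH1. In CEL against CE the change was 0.14 ± 0.06 (95% interval 0.00 to 0.28, adjusted p = 0.134), and without CE 1 it was 0.25 with adjusted p = 0.0474, in a range of 0.0389 to 0.858. The ratio of TFRC to SLC11A2 in TPM was 3.73 to 3.95 in CEL, 3.62 to 4.07 in CE, 4.17 to 4.95 in LPS and 11.5 to 11.9 in NC.

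SLC11A1 (ENSG00000018280, chr2:218382029-218396894) encodes NRAMP1, the metal transporter of the phagosome membrane in macrophages. It was near the limit of detection, with 4, 4 and 2 counts in CEL, 2, 4 and 2 in CE, 15, 20 and 34 in LPS and 10, 7 and 7 in NC, and no library outside LPS reached the filter's cut of 0.485 CPM. LPS lay above the other groups, and CEL and CE lay below NC. Since the LPS libraries brought it into the test, its 3 changes against or from LPS are given as a description. They were 1.48 ± 0.36 in LPS against NC, -2.99 ± 0.42 in CE against LPS and -2.68 ± 0.40 in CEL against LPS. The falls against NC, by 1.51 ± 0.45 in CE (adjusted p = 0.0124) and by 1.20 ± 0.44 in CEL (adjusted p = 0.0303), did not hold throughout. The first was lost with DESeq2 and without the filter (adjusted p from 0.00473 to 0.930 over the alternatives). The second was lost with the same and without CEL 1, CEL 3, NC 1 or NC 3, at -1.24, -0.99, -1.12 and -1.14 (adjusted p from 0.0129 to 0.859). Both turned positive on TPM, at 0.06 on log2(TPM + 1).

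CYBRD1 (ENSG00000071967, chr2:171522247-171558133) encodes a ferric reductase of the plasma membrane, which reduces iron before uptake by DMT1. CYBRD1 had 10.7, 11.2 and 12.1 CPM in CEL, 18.8, 14.3 and 17.8 CPM in CE, 12.1, 11.1 and 10.5 CPM in LPS, and 37.0, 35.2 and 34.5 CPM in NC. CE lay between NC and the overlapping libraries of CEL and LPS. CYBRD1 fell by 1.66 ± 0.10, or 3.16-fold, in LPS against NC (adjusted p = 1.41e-07), opposite in sign to SLC11A2. It rose by 0.59 ± 0.10 in CE against LPS (adjusted p = 0.000497) and fell by 0.58 ± 0.10 in CEL against CE (adjusted p = 0.00184), which left CEL against LPS at 0.01 ± 0.10 (95% interval -0.22 to 0.24, adjusted p = 0.938). That near-zero value turned to -0.04 without CEL 3 and to -0.03 without LPS 3. The call in CEL against CE was lost on TPM and when the 2 groups were fitted alone, with adjusted p from 6.49e-05 to 0.572. The length that the deposited TPM used for CYBRD1 was itself shorter in CEL, with a mean log2 relative length of -0.22 in CEL, -0.06 in CE, 0.07 in LPS and 0.21 in NC, so its TPM and CPM differ by group.

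SLC40A1 (ENSG00000138449, chr2:189560579-189583758) encodes ferroportin, the known exporter of iron from cells, and is the third gene here with a 5' UTR hairpin. SLC40A1 had 1.69, 1.95 and 1.77 CPM in CEL, 2.21, 1.59 and 1.98 CPM in CE, 2.36, 2.27 and 2.18 CPM in LPS, and 19.8, 16.3 and 19.4 CPM in NC. Every library with LPS and ATP lay below every NC library. SLC40A1 fell by 3.03 ± 0.14, or 8.14-fold, in LPS against NC (adjusted p = 1.3e-08), by 3.26 ± 0.15 in CE against NC (adjusted p = 4.16e-09) and by 10.2-fold, a change of -3.35 ± 0.15, in CEL against NC (adjusted p = 2.91e-09). In LPS against NC its change ranked 82 from the lowest of all tested genes. Within the treated groups the changes were -0.23 ± 0.15 in CE against LPS (95% interval -0.56 to 0.09, adjusted p = 0.274) and -0.33 ± 0.15 in CEL against LPS (95% interval -0.65 to -0.00, adjusted p = 0.108). Between CEL and CE it was -0.09 ± 0.15 (adjusted p = 0.751), and 0.09 without CE 1. With upper quartile factors CE and CEL against LPS passed, with adjusted p of 0.0463 and 0.0236, in ranges of 0.0463 to 0.876 and 0.0236 to 0.598. SLC40A1 stayed below NC with the drugs in both groups.

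The 2 sensors moved apart under the drugs. ACO1 (ENSG00000122729, chr9:32384603-32454769) encodes cytosolic aconitase, which becomes iron regulatory protein 1 when it loses its iron-sulfur cluster. ACO1 had 50.03, 51.4 and 53.7 CPM in CEL, 56.7, 48.7 and 52.7 CPM in CE, 38.2, 37.0 and 34.5 CPM in LPS, and 42.5, 39.4 and 39.6 CPM in NC. CEL and CE overlapped and lay above NC, which lay above LPS. ACO1 was -0.15 ± 0.07 in LPS against NC (95% interval -0.30 to 0.00, adjusted p = 0.105), rose by 0.53 ± 0.07 in CE against LPS (adjusted p = 6.28e-05) and rose by 0.50 ± 0.07 in CEL against LPS (adjusted p = 7.5e-05). Against NC it rose by 0.38 ± 0.07 in CE (adjusted p = 0.000498) and by 0.35 ± 0.07 in CEL (adjusted p = 0.000772). With upper quartile factors the change in LPS against NC was -0.26 and passed (adjusted p = 0.013, in a range of 0.013 to 0.895). Both calls against NC were lost with upper quartile factors, with adjusted p up to 0.278 and 0.227 over the alternatives, the lowest being 6.36e-05 and 0.000858.

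IREB2 (ENSG00000136381, chr15:78437431-78501456) encodes iron regulatory protein 2, whose protein is degraded when iron is plentiful. IREB2 had 129, 128 and 139 CPM in CEL, 148, 147 and 158 CPM in CE, 198, 199 and 178 CPM in LPS, and 214, 221 and 216 CPM in NC. The 4 groups did not overlap and stood in the order opposite to FTH1. IREB2 fell by 0.34 ± 0.05 in CE against LPS (adjusted p = 0.000188), by 0.54 ± 0.05 in CEL against LPS (adjusted p = 4.2e-06) and by 0.72 ± 0.05, or 1.64-fold, in CEL against NC (adjusted p = 2.22e-07). The smaller falls were less stable. In LPS against NC it fell by 0.18 ± 0.05 (adjusted p = 0.0144), but without LPS 3 the change was -0.12 and without NC 2 it was -0.17, neither passing. Over the alternatives that adjusted p ranged from 0.000674 to 0.662, and on TPM the change was 0.13.

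In CEL against CE, IREB2 fell by 0.19 ± 0.05 (adjusted p = 0.0197), and the call was lost without CEL 1, CEL 2, CE 1 or CE 3, at -0.13, -0.12, -0.13 and -0.09. It was also lost with each other scaling, with DESeq2, without the filter and with the 2 groups alone, and on TPM the change was 0.02, with adjusted p from 0.0123 to 0.983. On TPM the falls of IREB2 against NC in CE and CEL were 0.39 and 0.37 in size with adjusted p of 0.0812 and 0.0871, in ranges of 3.32e-12 to 0.0825 and 4.73e-19 to 0.0881. The length behind the TPM of IREB2 varied between libraries within a group, from -0.23 to 0.22 on the log2 scale over the 12 libraries. The ratio of ACO1 to IREB2 in TPM was 0.430, 0.552 and 0.456 in CEL, 0.555, 0.444 and 0.414 in CE, 0.215, 0.232 and 0.198 in LPS, and 0.265, 0.251 and 0.218 in NC. CEL and CE lay above LPS and NC in every library.

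The contrast of CEL with CE is the comparison for luspatercept, since by the labels the 2 groups differ by it alone. FTH1 rose, and CYBRD1 and IREB2 fell, with the limits given above. For NCOA4 the change was 0.04 ± 0.07 (95% interval -0.12 to 0.20, adjusted p = 0.738), and -0.04 without CE 2. For ACO1 it was -0.03 ± 0.07 (95% interval -0.18 to 0.12, adjusted p = 0.812), and positive without CEL 1, CEL 2, CE 1 or CE 3, at 0.03, 0.03, 0.11 and 0.04. For SLC11A1 it was 0.31 ± 0.51 (95% interval -0.81 to 1.43, adjusted p = 0.765), an interval too wide to place it. A value that did not pass does not show that CEL and CE are alike.

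Of 60 further genes of iron handling in 7 lists, 46 were tested. In LPS against NC 9 rose and 12 fell, in CE against LPS 13 rose and 11 fell, in CEL against LPS 9 rose and 14 fell, and in CEL against CE 5 rose, 5 fell and 36 did not pass. The totals called were 21, 24, 23 and 10 of 46, shares near the 45.9%, 49.6%, 55.9% and 23.6% over all genes. Among 7 tested genes of the transferrin cycle, 2 rose in LPS against NC, 3 rose and 2 fell in CE against LPS, and 3 rose and 3 fell in CEL against LPS, where 45.9%, 49.6% and 55.9% of all genes were called. STEAP4, a metalloreductase counted among these genes, was at 0.413 ± 0.135 CPM in CEL, 0.888 ± 0.162 in CE, 2.58 ± 0.311 in LPS and 0.0619 ± 0.0192 in NC. Its means in CEL and NC lay below the filter's cut of 0.485 CPM, so its changes are given as a description. They were 5.23 ± 0.36 in LPS against NC and -2.61 ± 0.28 in CEL against LPS. STEAP1, of the same family, fell by 2.38 ± 0.26 in CE against LPS (adjusted p = 1.59e-05). SNX3, which recycles the transferrin receptor, rose by 0.66 ± 0.06 in CEL against LPS (adjusted p = 1.52e-06), with TFRC.

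Among 4 tested genes of other import routes, 2 rose and 1 fell in LPS against NC, and 3 fell in CE against LPS and again in CEL against LPS. That is 3 of 4 in each, beside the same 45.9%, 49.6% and 55.9% of all genes. CD163, the scavenger receptor for haptoglobin-haemoglobin complexes, was at 0.471 ± 0.447 CPM in CEL, 0.968 ± 0.309 in CE, 6.46 ± 0.483 in LPS and 0.653 ± 0.227 in NC. It rose by 3.32 ± 0.50 in LPS against NC (adjusted p = 0.000228) and fell by 3.79 ± 0.52 in CEL against LPS (adjusted p = 7.14e-05). SLC39A8, a zinc transporter that also carries iron, rose by 1.62 ± 0.05 in LPS against NC (adjusted p = 1.66e-10) and fell by 0.75 ± 0.05 in CEL against LPS (adjusted p = 1.18e-07). CD163 and SLC39A8 fell in CE and in CEL against LPS, and STEAP4 lay lower there, where TFRC, SLC11A2 and SNX3 rose. The mean of CD163 in CEL lay below the filter's cut of 0.485 CPM, so its fall there rests on few counts. SLC39A14, a related transporter, fell by 0.63 ± 0.04 in LPS against NC (adjusted p = 4.53e-07) and by 0.36 ± 0.04 in CE against LPS (adjusted p = 3.93e-05). Of the export and hepcidin genes only FLVCR1, a heme and choline transporter, was tested, and it passed in none of these 4 comparisons.

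FBXL5, the ubiquitin ligase subunit that binds iron and marks IREB2 protein for degradation, was at 56.9 ± 5.25 CPM in CEL, 62.6 ± 4.43 in CE, 131 ± 8.89 in LPS and 57.4 ± 3.45 in NC. It rose by 1.19 ± 0.08 in LPS against NC (adjusted p = 4.36e-07) and fell by 1.07 ± 0.08 in CE against LPS (adjusted p = 1.12e-06) and by 1.20 ± 0.08 in CEL against LPS (adjusted p = 2.94e-07). Of its list of 5 iron chaperones and sensors, 1 rose and 1 fell in LPS against NC, 1 rose and 1 fell in CE against LPS, and 1 fell in CEL against LPS, where 45.9%, 49.6% and 55.9% of all genes were called. PCBP1, a chaperone that delivers iron to ferritin, was at 97.4 ± 12.5 CPM in CEL, 109 ± 36.6 in CE, 98.1 ± 5.79 in LPS and 91.7 ± 7.59 in NC and passed in none of them. PCBP2, a related chaperone, was at 131 ± 8.63 CPM in CEL, 138 ± 31.1 in CE, 106 ± 3.68 in LPS and 126 ± 5.79 in NC. It rose by 0.38 ± 0.12 in CE against LPS (adjusted p = 0.0221), and in CEL against LPS its change was 0.31 ± 0.12 (adjusted p = 0.0518).

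Of 5 tested mitochondrial iron genes, 3 fell in LPS against NC, 1 rose and 1 fell in CE against LPS, and 1 fell in CEL against LPS, beside 45.9%, 49.6% and 55.9% called over all genes. Of 20 tested genes of iron-sulfur cluster assembly, 4 rose and 6 fell in LPS against NC, 6 rose and 4 fell in CE against LPS, and 4 rose and 6 fell in CEL against LPS. These 10 of 20 in each comparison were near the 45.9%, 49.6% and 55.9% of all genes. ISCU, the scaffold on which the cluster is built, rose by 0.64 ± 0.07 in CEL against LPS (adjusted p = 1.4e-05), while BOLA3, a late-acting assembly factor, fell by 0.68 ± 0.08 (adjusted p = 1.49e-05).

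Of 4 tested genes whose mRNA is known to carry an iron-responsive element, 1 fell in LPS against NC and 2 rose in CE against LPS and in CEL against LPS, where 45.9%, 49.6% and 55.9% of all genes were called. CDC42BPA, a kinase gene, rose by 0.63 ± 0.16 in CEL against LPS (adjusted p = 0.00508). ACO1 and ISCU each rose in CE and in CEL against LPS, and neither passed in LPS against NC.

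**Figure D4:**
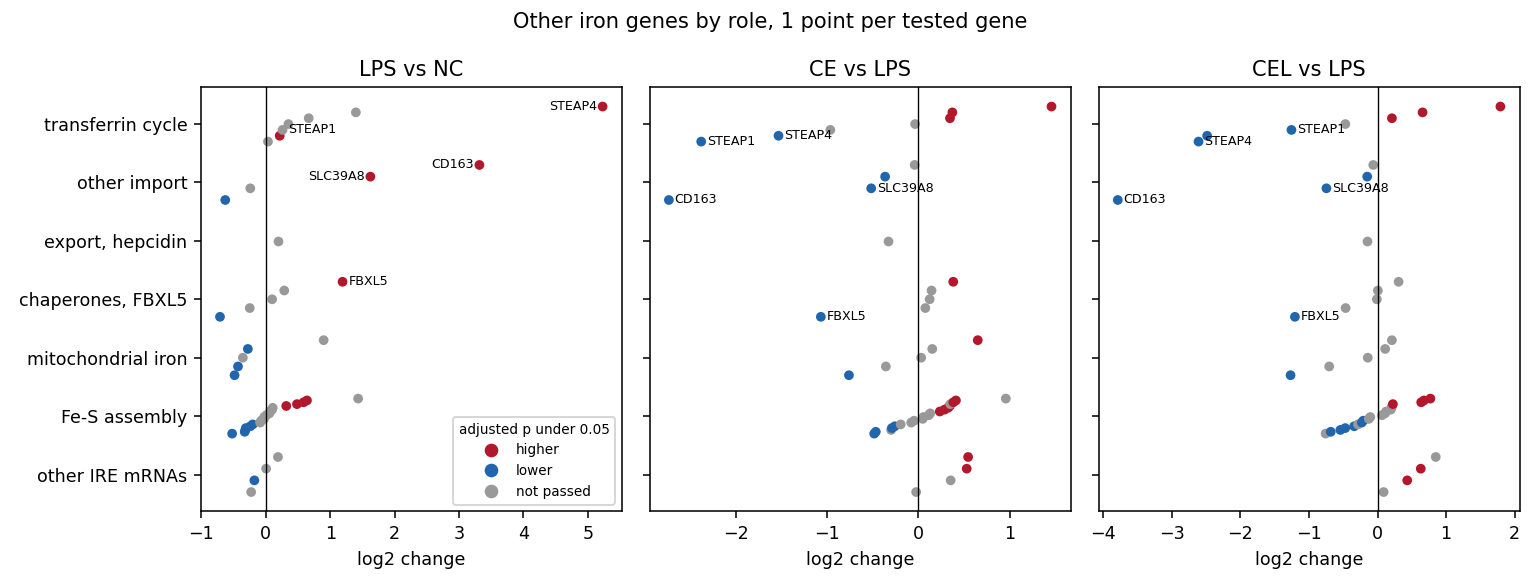
Log2 change of the 46 further iron genes that were tested, 1 point a gene, in 7 rows by role and 3 comparisons. Red points rose, blue points fell and grey points did not pass the adjusted threshold of 0.05. CD163, STEAP4 and FBXL5 lie to the right in LPS against NC, at 3.32, 5.23 and 1.19, and to the left in CEL against LPS, at -3.79, -2.61 and -1.20. The mean of STEAP4 in CEL and NC, and that of CD163 in CEL, lay below the filter's cut of 0.485 CPM.

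Likeness of pattern was measured over the 4 groups as the root mean square difference of centred mean log2 CPM, for 7459 genes whose mean log2 CPM reached 3. The genes most like FTH1 were DOCK4 at 0.30, TNFAIP3 at 0.30 and PARM1 at 0.37. For TFRC, NCSTN lay at 0.01, and USP28 and ZNG1F at 0.03 each. For FTL the nearest were a gene with no symbol in the tables (ENSG00000305635) at 0.03, TACC1 at 0.03 and WBP2 at 0.04. These distances were on the log2 scale, and those of FTH1, whose groups lay farther apart, were larger.

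RefSeq promoters on GRCh38.p14, from 250 bases before to 50 after a start, were given for 9 of the 10 genes. FTH1 is named only. The 5 bases ACGTG, 1 form of the core that hypoxia-inducible factors bind, were found on either strand in 21.4% of 35116 promoters. Other forms of that core were not searched. Of the 15 promoters of these 9 genes 2 held ACGTG, those of TFRC and FTL, which is not above that share. The antioxidant response core TGANNNNGC, on either strand, was found in 41.8% of the 35116 promoters. It was in 5 of the 15 promoters, from NCOA4, SLC11A1, SLC11A2 and SLC40A1, again not above that share. A match is a description of the letters and shows no binding.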

How the data were processed

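Messenger RNA captured on oligo-dT beads was sequenced from 12 THP-1 libraries, per the labels' protocols. The authors deposited 3 tables of 78932 genes. The deposited estimated counts are not scaled, and 29.3% of their nonzero values are not whole within 0.005. The deposited TPM values are scaled by the authors to the same total in each library. The deposited FPKM table was not used. The genome build was hg38, per the submitters' processing notes. Not given in the sources used here are the aligner, the counter, the strand setting and the annotation. Genes whose reads overlap an antisense neighbour may therefore be mixed. Column names were matched to the labels: pyroptosis to LPS, luspatercept treatment to CEL and the remaining treatment to CE, with 0 columns left over.

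Estimated counts were rounded to whole numbers, filtered with filterByExpr, scaled with TMM and tested in edgeR 4.0.16 (R 4.3.3) in 1 quasi-likelihood fit of the 12 libraries, which tested 14065 genes with a biological coefficient of variation of 20.1%. All 10 genes passed the filter, SLC11A1 through the LPS libraries alone. The approximate standard error was the size of each change over the root of its F statistic. The scripts were tested on simulated data. Alternatives used DESeq2 1.42.0 and limma 3.58.1. Sequences came from the GRCh38 transcripts of GENCODE release 29 and from RefSeq promoters.

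The label batch equals the replicate number, so libraries with the same number share a batch, per the labels. Over 7460 genes, 6 of 18 same-numbered pairs had deviations correlated over 0.1 (range -0.86 to 0.73, median -0.19). No source says that libraries are separate cultures, so the p-values cover only the spread among these libraries, which may be technical. No pair within a group agreed within sampling noise (chi-square per degree of freedom of 3.26 to 139.8).

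The 10 genes, the lists of other iron genes and the tests were chosen with earlier results of these data known. All 10 genes are named, and from each further list up to 3 genes with the smallest p in CE against LPS. For FTH1, FTL and TFRC the 3 genes most alike in pattern are named. Values of some further genes that this rule names are not reported here. IL1B and RCAN1 are checks. No group of 3 libraries was tested for outlying values.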

Additional observations from a re-analysis of the deposited data

How the results depend on the processing

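Of 969 recomputed changes of the 10 genes, 877 kept their direction and their side of the threshold, 46 lost the call, 12 gained one and 34 changed sign. With the replicate block the genes called were 9, 9, 8, 3, 9 and 9 in LPS against NC, CE against LPS, CEL against LPS, CEL against CE, CE against NC and CEL against NC, as without it, and the block changed no call of the 10 genes. Leaving out 1 library gave 8 to 9, 9, 8, 2 to 4, 9 to 10 and 8 to 9. Leaving out NC 3, LPS 1 and CE 2 together, chosen after seeing the data, gave 9, 9, 8, 3, 9 and 8.

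On TPM with limma no gene of the 10 passed in CEL against CE (0 with either pseudocount, 1 or 0.1), and 1 passed when the 2 groups were fitted alone. Over all genes, log2(TPM + 1) and log2(TPM + 0.1) gave 2963 and 2951 calls in LPS against NC (2070 higher with the first, 893 and 772 lower), 3586 and 3545 in CE against LPS (2242 and 2205 higher, 1344 and 1340 lower), 4984 and 4978 in CEL against LPS (1936 and 1980 lower), and 266 and 225 in CEL against CE (109 and 83 higher, 157 and 142 lower). Lower calls against NC were 2070 and 2000 for CE and 2477 and 2453 for CEL. Without the filter on low counts, 1956 genes fell in LPS against NC and 463 rose in CEL against CE. The 2 groups alone gave 1710 calls in CEL against CE, 886 lower, where leaving out 1 library gave 2120 to 4066 calls, 837 to 1685 higher and 1098 to 2459 lower.

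Values that changed sign were small or rested on TPM. IREB2 was 0.129 and 0.131 in LPS against NC and 0.0186 and 0.019 in CEL against CE on TPM. SLC11A1 was 0.0641 and 0.0741 in CE against NC, 0.0562 and 0.147 in CEL against NC, and -0.00787 in CEL against CE on log2(TPM + 1). NCOA4 was 0.0659 and 0.0664 in CE against NC and 0.175 and 0.176 in CEL against NC on TPM, and in CEL against CE -0.0355 without the filter, -0.0417 to 0.178 without 1 library and -0.0367 without the 3 libraries. CYBRD1 in CEL against LPS was -0.123 with upper quartile factors, -0.099 with library size alone, -0.0849 without the filter, -0.0080 with the 2 groups alone, and -0.0356 to 0.0761 without 1 library, being -0.0276 without LPS 3. SLC40A1 in CEL against CE was -0.221 to 0.0943 without 1 library. ACO1 in CEL against CE was 0.0100, 0.0099, 0.0149 and 0.0101 with relative log expression, upper quartile, library size and DESeq2 scaling, 0.0442 and 0.0463 on TPM, 0.0206 with the 2 groups alone, and -0.0875 to 0.106 without 1 library. The cause was not tested. Upper quartile factors shifted the median of all genes by -0.28 to 0.04 and library size alone by -0.16 to 0.04, and each such shift moves every gene by about the same amount.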
